A study of Mus musculus with 20 samples.

Results

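Transcripts of 10 genes that choose between absorptive and secretory fate in the colon were followed across organoids with and without an activated BrafV600E allele. They were the Notch ligands Dll1, Dll4 and Jag1, the receptors Notch1 and Notch2, the Notch target Hes1, and the secretory and differentiation factors Atoh1, Gfi1, Spdef and Klf4. They were matched by gene name among the non-control spots of the arrays, and all 10 were among the 21424 genes tested. They were chosen by name and function, with earlier results of these data known, and not by a cut on measured values.

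The organoids were grown from proximal colon crypts of male mice about 40 days old with 1 BrafV600E allele that Cre switches on, so every EV, BRAF and selected culture started from the same genotype. EV organoids received the lentiviral backbone without Cre. BRAF organoids received Cre by lentivirus, and their RNA was taken 5 months later. Selected organoids carried activated BrafV600E and had been selected for growth in base medium, from which the niche factors of stem cells are left out. The labels number 3 lines alike in EV, BRAF and selected cultures, which is taken here as the same line, and do not say whether selection was done separately for each. Each culture gave 1 array after 48 h in ENSW medium and 1 after 48 h in base medium, so there were 6 groups of 3 arrays. The labels do not spell out ENSW, and the culture medium of the growth protocol held Wnt3a, R-spondin, Noggin and EGF. Wild-type organoids gave 1 array per medium and are given as values only. As a model, each type was 1 culture per line, and the promoter that drove Cre is not given in the sources used here.

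Notch is a receptor that is cut on contact with a Delta or Jagged ligand on a neighbouring cell. The freed intracellular part binds the DNA-binding protein Rbpj and switches on repressors such as Hes1. In the intestine, Hes1 holds down Atoh1, the master factor of the secretory lineage, so Notch-active cells become absorptive or stay as progenitors. Cells that keep Atoh1 express Notch ligands and go on to Gfi1 and Spdef, and Klf4 marks differentiated, non-dividing cells and goblet cells.

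Levels are log2 intensities minus the 75th percentile of the same array, so that 0 is that percentile and 1 unit is a doubling. Values after ± are standard errors (SE) from the fit for differences, and standard deviations (SD) for levels. Genes with a limma p under 0.05 after Benjamini-Hochberg adjustment across the 21424 genes are said to be called, and "rose" and "fell" are kept for them. Levels of different probes are not on a common scale, so each gene is compared with itself. In these bulk samples, fewer cells of a type and less RNA per cell cannot be told apart.

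In EV organoids, base medium lowered Notch1, Notch2 and Hes1 and raised Klf4, where 42.2% of all genes were called. The fall of Notch2 was seen on the brighter of its probes alone. Hes1 fell by only 0.02 in line 2, and its call was lost with another background correction. In BRAF and selected organoids none of the 10 genes changed between media at the threshold, against 1.67% and 0.00467% of all genes. That fit did not pair the 2 media of a culture. With the culture as a block, 4082 genes were called between media in BRAF organoids, where the main fit called 358. Gfi1 was then called too (limma adjusted p = 0.0468). In base medium, selected organoids stood above EV organoids in Notch1, Notch2 and Hes1 and below them in Klf4, Dll4, Atoh1 and Gfi1. Of all genes, 48.2% were called in that comparison. Atoh1, Gfi1 and Spdef were spread over many log2 units between lines of the same type.

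The promoters of 5 genes are shown for the receptors and factors whose patterns are compared most below. Notch1 and Notch2 moved together, Klf4 moved the opposite way, and Atoh1 and Spdef are the factors at either end of the secretory program. Each runs 5′ to 3′ from 250 bases before to 50 bases after the start site, from RefSeq on GRCm38.p6. Capitals mark TGGGAA on either strand (TTCCCA on the other), the core that Rbpj recognises, and CANNTG, the E-box that factors such as Atoh1 recognise.
Notch1, chr2:26503773-26504072, minus strand: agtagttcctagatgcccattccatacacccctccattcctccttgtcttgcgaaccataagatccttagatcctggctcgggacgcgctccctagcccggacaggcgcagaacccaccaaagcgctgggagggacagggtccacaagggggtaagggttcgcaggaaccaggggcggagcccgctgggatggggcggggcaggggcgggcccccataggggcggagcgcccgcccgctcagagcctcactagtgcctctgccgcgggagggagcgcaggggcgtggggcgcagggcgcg
Notch2, chr3:98013288-98013587, plus strand: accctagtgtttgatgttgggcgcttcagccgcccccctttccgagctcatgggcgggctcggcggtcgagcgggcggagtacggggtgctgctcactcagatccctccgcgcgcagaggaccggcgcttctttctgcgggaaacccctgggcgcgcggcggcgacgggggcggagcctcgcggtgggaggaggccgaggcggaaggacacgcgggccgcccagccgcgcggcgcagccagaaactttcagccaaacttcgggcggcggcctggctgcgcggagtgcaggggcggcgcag
Klf4, chr4:55532426-55532725, minus strand: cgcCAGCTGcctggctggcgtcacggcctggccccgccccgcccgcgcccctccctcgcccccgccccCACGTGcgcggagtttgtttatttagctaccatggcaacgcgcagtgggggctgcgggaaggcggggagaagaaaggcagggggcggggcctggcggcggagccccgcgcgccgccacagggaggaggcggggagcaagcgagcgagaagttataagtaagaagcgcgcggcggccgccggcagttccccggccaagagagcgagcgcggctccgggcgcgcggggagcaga
Atoh1, chr6:64728875-64729174, plus strand: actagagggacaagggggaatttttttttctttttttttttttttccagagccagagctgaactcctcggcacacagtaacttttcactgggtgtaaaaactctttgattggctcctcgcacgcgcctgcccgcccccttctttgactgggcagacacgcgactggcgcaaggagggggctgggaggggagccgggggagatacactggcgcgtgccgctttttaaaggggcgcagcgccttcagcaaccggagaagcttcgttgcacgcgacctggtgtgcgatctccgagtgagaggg
Spdef, chr17:27728902-27729201, minus strand: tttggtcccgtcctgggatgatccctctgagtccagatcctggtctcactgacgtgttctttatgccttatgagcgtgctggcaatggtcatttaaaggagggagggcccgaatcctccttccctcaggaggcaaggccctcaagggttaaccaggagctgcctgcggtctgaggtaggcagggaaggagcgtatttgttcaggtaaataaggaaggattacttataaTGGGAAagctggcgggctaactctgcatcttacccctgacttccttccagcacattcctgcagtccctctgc

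Promoter entries matched 9 of the 10 genes, and none was found for Hes1. TGGGAA lay in 1 of these windows, that of Spdef, 22 bases before the start site. Of the 32851 promoters searched, 25.6% held it. CANNTG lay in both windows of Dll1 (1 and 3 matches), in both windows of Gfi1 (1 match each), and in those of Jag1 (1) and Klf4 (2). It lay in 72.3% of all promoters. The windows of Notch1, Notch2, Atoh1, Dll4 and Spdef held no CANNTG. GC content ran from 53.3% in the Spdef window to 74.3% in the Klf4 window, with 68.3% for Notch1, 73% for Notch2 and 56.7% for Atoh1.

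**Figure D1:**
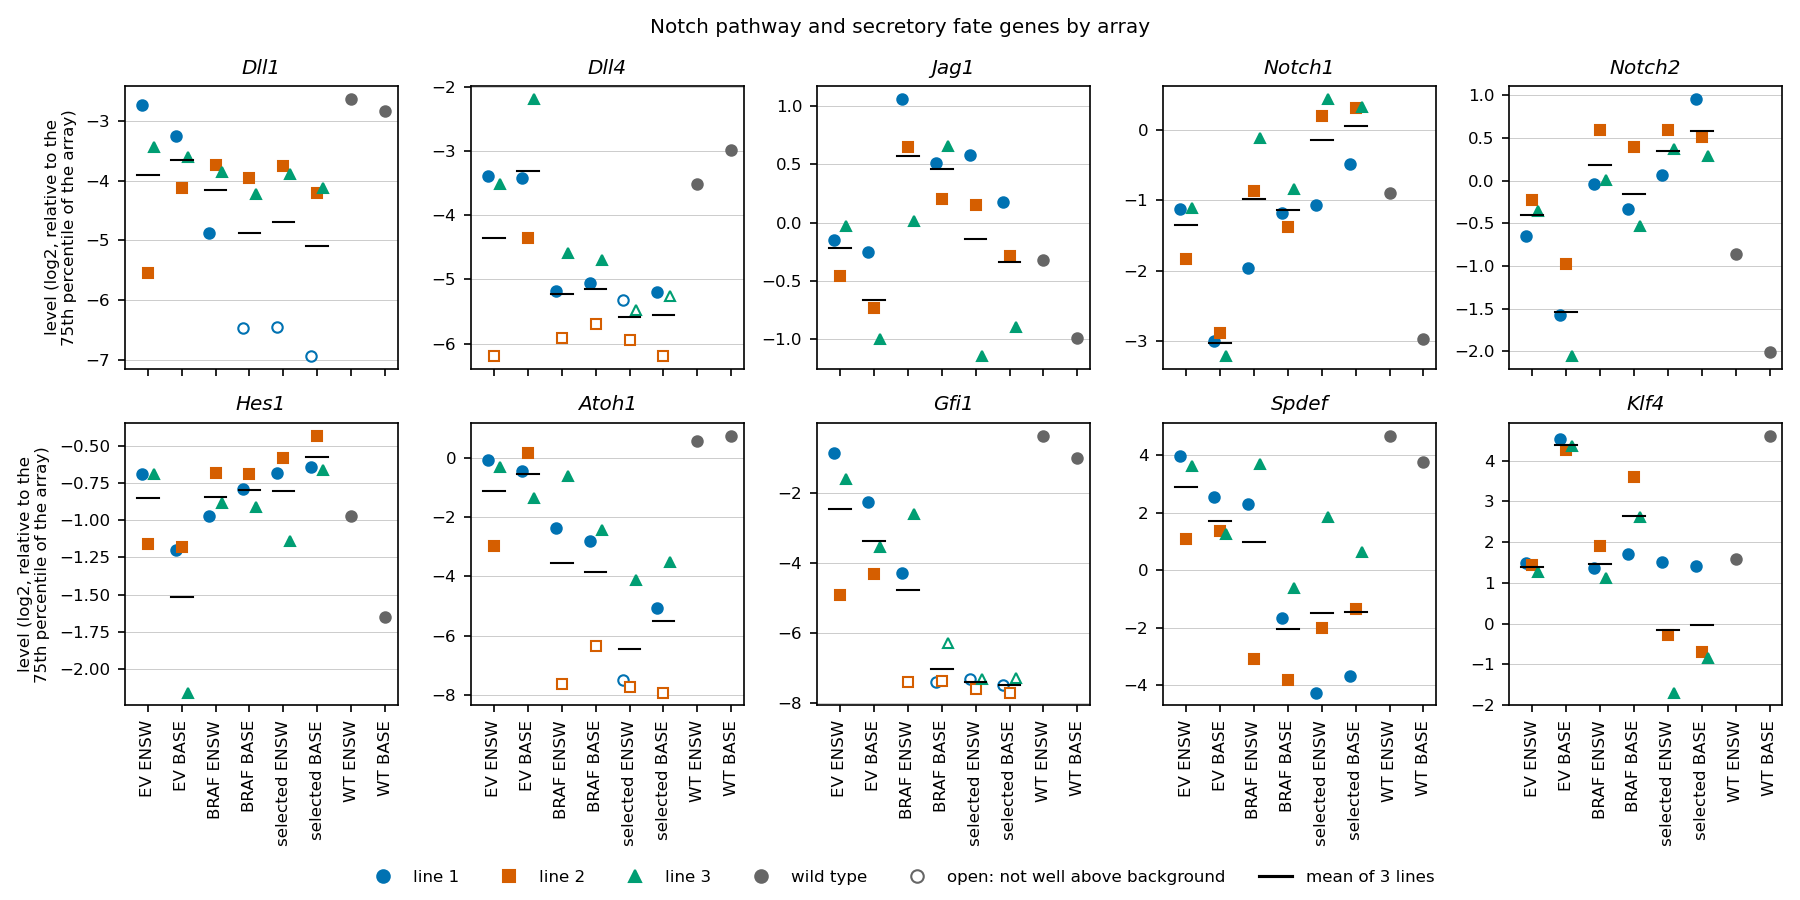
Level of each gene on each array, as log2 intensity minus the array's 75th percentile; the y axis differs between genes. Symbols stand for lines 1 to 3, grey for the single wild-type arrays, open symbols for probes not well above background, and bars for the mean of 3 lines. Wild type left out, Notch1 and Notch2 are lowest in EV organoids in base medium, and Klf4 is highest there. Gfi1 has open symbols on all 9 arrays of BRAF organoids in base medium and of selected organoids.

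Between media, 4 of the 10 genes were called in EV organoids (limma, adjusted p under 0.05), where 42.2% of all genes were called. These counts come from the fit that did not pair the media by culture. In BRAF organoids 0 of 10 were called, against 1.67% of all genes, and 0 members had an unadjusted p under 0.05. In selected organoids 0 of 10 were called, against 0.00467% of all genes (1 gene), and 0 members had an unadjusted p under 0.05. Between organoid types in ENSW medium, limma called 0 of 10 for BRAF against EV (6.22% of all genes, 1 member at an unadjusted p under 0.05) and 1 of 10 for selected against EV (13.8%). For selected against BRAF in ENSW it called 0 of 10 (0.607% of all genes, 2 members at an unadjusted p under 0.05). In base medium the counts were 5 of 10 for BRAF against EV (31% of all genes), 7 of 10 for selected against EV (48.2%) and 1 of 10 for selected against BRAF (9.77%).

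The response to the medium, base minus ENSW, was also compared between types with limma. It differed between selected and EV organoids for 2 of 10 genes, against 24.2% of all genes. Between BRAF and EV organoids it differed for 0 of 10 (3.53% of all genes, 1 member at an unadjusted p under 0.05), and between selected and BRAF for 0 of 10 (0% of all genes; 0 members and 1799 genes at an unadjusted p under 0.05). The member counts in EV organoids between media and in the responses were close to these shares of all genes. With 10 genes, 1 gene is 10 percentage points. BRAF and selected organoids were set against the same EV arrays, so their differences from EV are not independent of each other.

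Arrays lay on 6 slides, and no EV array shared a slide with a BRAF or selected array, so slide and the difference from EV cannot be told apart. Both media of a culture lay on 1 slide. Epithelial markers (Cdh1, Cdx2, Epcam, Krt8, Krt18 and Vil1) were well above background on every array of every group. They also moved with the groups: 4 of 6 rose in EV organoids in base medium and 5 of 6 fell in selected against EV organoids there, Epcam by 1.86 ± 0.30 (limma adjusted p = 0.000165). Of 8 stromal markers, 4 to 6 per group were not well above background on any array, and 2 or 3 were on all arrays, with summed signals of 0.304 to 0.495 in units of the 75th percentile. The stromal marker Pdgfrb fell in BRAF and selected against EV organoids in either medium, with values given below beside Notch3. Of 6 immune markers 3 were well above background on all arrays of each group, Itgam among them, and Lyz2 on none, with summed signals of 39 to 60.4 in EV organoids in base medium and 16.4 to 31.5 in the other groups. Itgam rose by 1.36 ± 0.21 in EV organoids in base medium (adjusted p = 0.000181) and fell by 1.39 ± 0.21 in selected against EV organoids there (adjusted p = 9.75e-05). Of 5 endothelial markers, Cdh5 and Tek were not well above background in any group, and Kdr was on all arrays and higher than in EV organoids in BRAF and selected organoids in either medium, by 0.37 to 0.70 (adjusted p between 0.00466 and 0.0412). Summed endothelial signals were 2.84 to 3.52 in EV, 4.32 to 5.99 in BRAF and 3.84 to 5.11 in selected organoids. The part of these genes in the results below was not tested.

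**Figure D2:**
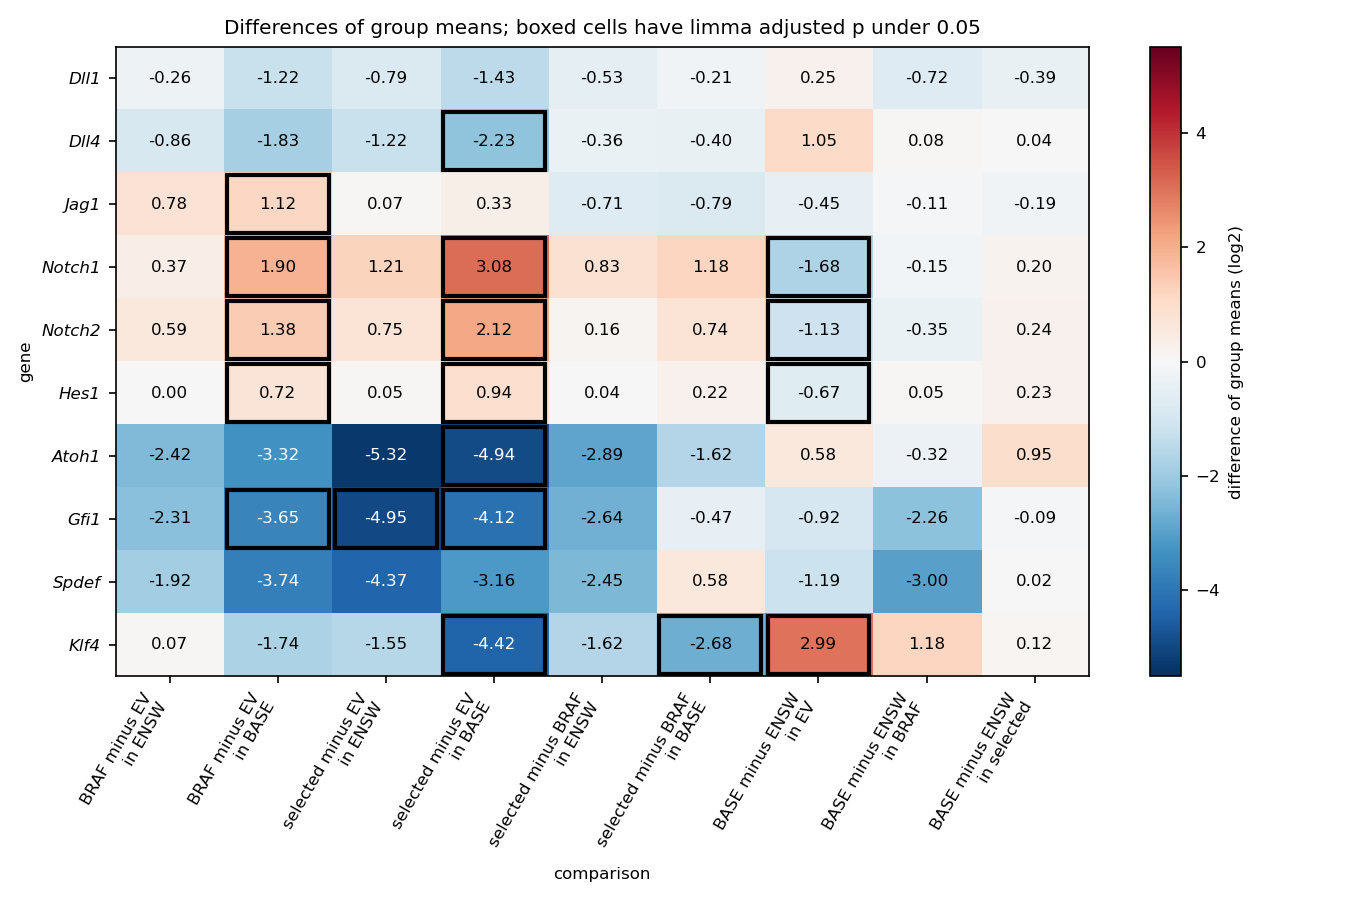
Differences of group means in log2 units for the 10 genes (rows) in 9 comparisons (columns); red is higher and blue lower in the group named first, and boxes mark limma adjusted p under 0.05. Boxes gather in the comparisons with EV organoids in base medium, with 7 for selected against EV.

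Dll1, a ligand carried by secretory progenitors, was low on all arrays (probe at chr17:15504623-15504682, minus strand, mm9). In EV organoids its level was -2.73, -5.54 and -3.43 in lines 1, 2 and 3 in ENSW medium and -3.25, -4.12 and -3.60 in base medium. BRAF organoids gave -4.88, -3.74 and -3.86 in ENSW and -6.46, -3.95 and -4.22 in base medium, and selected organoids gave -6.45, -3.75 and -3.88 and then -6.93, -4.20 and -4.13. Line 1 was the low line in both media in BRAF and selected organoids, and on 3 of those 4 arrays its probe was not well above background. Line 2 was the low line in EV organoids. The wild-type arrays gave -2.63 in ENSW and -2.84 in base medium, above all BRAF and selected arrays. No comparison called Dll1, and the largest difference was -1.43 ± 0.95 (SE) for selected against EV in base medium (limma adjusted p = 0.235).

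Dll4, another Delta ligand, gave -3.38, -6.19 and -3.51 in lines 1 to 3 of EV organoids in ENSW and -3.41, -4.35 and -2.18 in base medium (probe at chr2:119160779-119160838, plus strand, mm9). BRAF organoids gave -5.18, -5.92 and -4.58 in ENSW and -5.05, -5.69 and -4.69 in base medium. Selected organoids gave -5.32, -5.95 and -5.47 in ENSW, none of them well above background, and -5.19, -6.19 and -5.26 in base medium, where line 1 alone was. In base medium all 3 EV lines lay above all BRAF and selected lines. Selected minus EV was -2.23 ± 0.68 there, lower in 3 of 3 lines (limma adjusted p = 0.0148), with 1 of the 3 selected arrays well above background. Without EV base line 3 the adjusted p was 0.0803 and without selected base line 2 it was 0.0588. With normexp background correction the difference was -0.64, and with the authors' deposited values it was -0.92, both called. For BRAF against EV in base medium the difference was -1.83 ± 0.68 (adjusted p = 0.0559, called with the line number as a block at 0.00471, the culture as a block at 0.0364, quantile normalization at 0.0423 and the authors' values at 0.028). It was called as well without EV ENSW line 2 (0.0146) or EV base line 2 (0.0261), the low EV line. For selected against EV in ENSW it was -1.22 ± 0.68 (adjusted p = 0.248), and -2.13 (0.0284) without EV ENSW line 2. Between media in EV organoids Dll4 differed by 1.05 ± 0.68 (adjusted p = 0.241, and 0.0457 with the culture as a block).

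Jag1, a ligand of the Jagged family, was well above background on all 18 arrays (probe at chr2:136907433-136907492, minus strand, mm9). EV organoids gave -0.15, -0.46 and -0.03 in ENSW and -0.25, -0.73 and -1.0 in base medium. BRAF organoids gave 1.06, 0.65 and 0.01 and then 0.51, 0.20 and 0.66, and selected organoids gave 0.58, 0.15 and -1.14 and then 0.18, -0.29 and -0.89. BRAF lines stood above all EV lines in both media, and selected lines overlapped the EV lines. Jag1 was higher by 1.12 ± 0.40 in BRAF than in EV organoids in base medium, in 3 of 3 lines (limma adjusted p = 0.048), a 2.17-fold difference. That call stood at the edge of the threshold. It was lost with normexp (0.0629), the authors' values (0.0583) and no filter on dim probes (0.0666). It was also lost without any 1 of 11 arrays, with adjusted p between 0.0548 and 0.16: EV ENSW lines 1, 2 and 3, EV base lines 2 and 3, BRAF ENSW line 2, BRAF base lines 1, 2 and 3, and line 2 of selected organoids in ENSW and in base medium. In ENSW medium the same difference was 0.78 ± 0.40 (adjusted p = 0.271). For selected against BRAF in base medium it was -0.79 ± 0.40 (adjusted p = 0.239), and -1.84 (0.0238) with slide as a fixed block.

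Ordered by group mean, each of the 3 ligands had neighbouring groups whose lines overlapped at every step. For Dll1 and Dll4 the highest group was EV in base medium, with means of -3.66 ± 0.44 (SD, n = 3) and -3.32 ± 1.09. For Jag1 that group was the lowest, at -0.66 ± 0.38, and BRAF in ENSW was the highest, at 0.57 ± 0.53.

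Notch1, a receptor of crypt progenitors, was measured by a probe at chr2:26319440-26319499 on the minus strand of mm9. Its level in EV organoids was -1.13, -1.83 and -1.11 in lines 1, 2 and 3 in ENSW medium and -3.00, -2.89 and -3.21 in base medium. The media did not overlap, and the 3 base-medium arrays lay close together, below all other EV, BRAF and selected arrays. The single wild-type arrays gave -0.90 in ENSW and -2.97 in base medium. Notch1 fell by 1.68 ± 0.44 on the log2 scale between the media in EV organoids, in 3 of 3 lines (limma adjusted p = 0.00759), a 3.19-fold difference.

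BRAF organoids held Notch1 at -1.96, -0.87 and -0.12 in ENSW and at -1.18, -1.38 and -0.84 in base medium, and selected organoids at -1.07, 0.19 and 0.44 and then at -0.48, 0.31 and 0.32. In each type the media overlapped. The medium difference was -0.15 ± 0.44 in BRAF organoids (limma adjusted p = 0.905) and 0.20 ± 0.44 in selected organoids (adjusted p = 1). In base medium Notch1 was higher than in EV organoids by 1.90 ± 0.44 in BRAF (adjusted p = 0.00568) and by 3.08 ± 0.44 in selected organoids (adjusted p = 6.07e-05), the latter 8.47-fold, in 3 of 3 lines each and without overlap. With normexp these were 1.10 and 2.03, and the fall in EV organoids was -0.89, all called. In ENSW medium selected organoids differed from EV by 1.21 ± 0.44 (adjusted p = 0.0839), also without overlap. This was called with line as a block (0.0456), without selected ENSW line 1 (0.0314) and without BRAF ENSW line 1 (0.0495). Selected against BRAF gave 0.83 ± 0.44 in ENSW and 1.18 ± 0.44 in base medium (adjusted p = 0.551 and 0.108).

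The response of Notch1 to the medium differed between selected and EV organoids by 1.87 ± 0.63 (limma adjusted p = 0.043). That call was lost with normexp (1.04, adjusted p = 0.125), with the authors' values (0.0752) and without the filter (0.0601). It was lost without any 1 of 10 arrays, at 0.0503 to 0.0971: EV ENSW lines 1 and 3, EV base lines 1, 2 and 3, selected ENSW lines 1 and 2, selected base lines 2 and 3, and BRAF ENSW line 2. Between BRAF and EV organoids the response differed by 1.53 ± 0.63 (adjusted p = 0.191, and 0.0266 with the culture as a block). A second Notch1 probe (chr2:26314630-26314689) was well above background on 1 of 18 arrays. It gave -0.78 ± 0.56 for the medium in EV organoids (adjusted p = 0.294), 0.92 ± 0.56 for BRAF against EV in base medium (0.234) and 1.47 ± 0.56 for selected against EV there (0.0437).

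Notch2, the other receptor of the crypt, had 2 probes, and the brighter, at chr3:97953914-97953973 on the plus strand of mm9, stood for the gene. EV organoids gave -0.65, -0.22 and -0.35 in ENSW medium and -1.57, -0.98 and -2.05 in base medium. BRAF organoids gave -0.04, 0.60 and 0.01 and then -0.33, 0.39 and -0.53, and selected organoids gave 0.07, 0.60 and 0.37 and then 0.96, 0.51 and 0.29. As for Notch1, the 3 EV arrays in base medium were the lowest of the 18 arrays, and selected arrays in base medium had the highest group mean. Wild-type arrays gave -0.86 in ENSW and -2.01 in base medium.

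Notch2 fell by 1.13 ± 0.30 between the media in EV organoids, in 3 of 3 lines (limma adjusted p = 0.00835). Without EV base line 3 the change was -0.87 (adjusted p = 0.0504). In base medium it was higher than in EV organoids by 1.38 ± 0.30 in BRAF (adjusted p = 0.00403) and by 2.12 ± 0.30 in selected organoids (adjusted p = 5.86e-05), which is 4.36-fold, in 3 of 3 lines and without overlap. In ENSW medium the difference for selected organoids was 0.75 ± 0.30 (adjusted p = 0.112, called at 0.0464 with line as a block and at 0.0282 with the mean of its probes). Its response to the medium differed between selected and EV organoids by 1.37 ± 0.43 (adjusted p = 0.0326). Without EV ENSW line 2 or 3, EV base line 1 or 3, selected ENSW line 1 or 3, or selected base line 1, that difference lost its call, at 0.0547 to 0.0915.

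The 2 probes of Notch2 disagreed on the medium. The dimmer probe (chr3:97951233-97951292) gave -4.10, -3.32 and -3.72 in EV organoids in ENSW and -3.88, -3.67 and -3.43 in base medium, a difference of 0.05 ± 0.24 (limma adjusted p = 0.881). For BRAF against EV in base medium it gave 0.01 ± 0.24 (adjusted p = 0.98). Selected organoids were above EV organoids on it in ENSW (0.90 ± 0.24, adjusted p = 0.0258) and in base medium (0.81 ± 0.24, adjusted p = 0.0126). With the mean of both probes, the fall in EV organoids was -0.54 (adjusted p = 0.07), BRAF against EV in base medium was 0.70 (0.0318), and the difference in response between selected and EV was 0.64 (0.17). Selected against BRAF in base medium was 0.74 ± 0.30 on the brighter probe (0.14) and 0.77 (0.0447) with the mean. The higher Notch2 of selected organoids in base medium was seen on both probes, and its fall with the medium on the brighter probe alone.

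Group means of Notch1 and Notch2 had the same order from low to high: EV in base medium, EV in ENSW, BRAF in base medium, BRAF in ENSW, selected in ENSW, selected in base medium. The first step was the only one without overlap for either gene, and lines of neighbouring groups overlapped at the other 4 steps. Proliferation markers, genes of the cell cycle, were low in the same group. All 8 fell in EV organoids in base medium (18.8% of all genes fell), where their summed signal, in units of the 75th percentile, was 6 to 11.4 against 78.2 to 85.9 in ENSW. That sum was 21.1 to 41.2 in BRAF and 59.3 to 97.3 in selected organoids in base medium. Their part in the receptor levels was not tested.

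**Figure D3:**
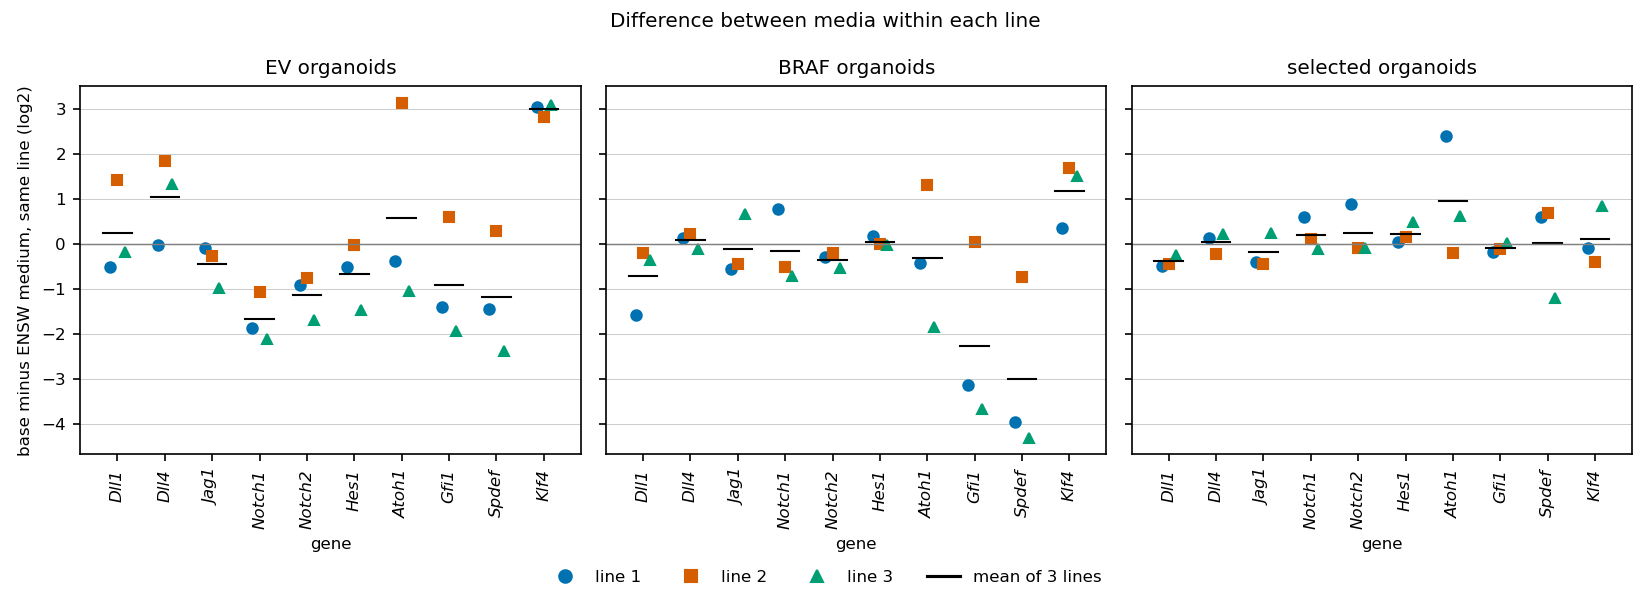
Difference between base and ENSW medium for each gene within each line, in log2 units, for EV, BRAF and selected organoids; symbols are lines 1 to 3 and bars the mean. In EV organoids Notch1 and Notch2 are below 0 and Klf4 above 0 in every line, and in selected organoids most points lie near 0.

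Hes1, the repressor that Notch switches on, moved over a narrower range than the receptors (probe at chr16:30067820-30067879, plus strand, mm9). Its level was -0.69, -1.16 and -0.69 in EV organoids in ENSW and -1.20, -1.18 and -2.16 in base medium. BRAF organoids gave -0.97, -0.68 and -0.88 and then -0.79, -0.69 and -0.91, and selected organoids gave -0.68, -0.58 and -1.14 and then -0.64, -0.43 and -0.66. The EV arrays in base medium were the 3 lowest of the 18, with line 3 well under the other two. Among the other 5 groups, neighbours in the order of means overlapped. Wild-type arrays gave -0.97 in ENSW and -1.65 in base medium.

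In base medium Hes1 was higher by 0.94 ± 0.24 in selected organoids than in EV, in 3 of 3 lines (limma adjusted p = 0.00496), 1.92-fold. Without EV base line 3 this was 0.62 (adjusted p = 0.0207). For BRAF against EV it was 0.72 ± 0.24 (adjusted p = 0.0348), and 0.40 (0.162) without EV base line 3. That call was also lost without BRAF base line 1 (0.0803) or 2 (0.0913), with normexp (0.44, adjusted p = 0.0887), the authors' values (0.0829), no filter (0.0509) and the culture as a block (0.0708). Between media in EV organoids Hes1 fell by 0.67 ± 0.24 (adjusted p = 0.0369), but by only 0.02 in line 2. Without EV base line 3 the change was -0.35 (adjusted p = 0.196), without EV ENSW line 1 or 3 its adjusted p was 0.114, normexp gave -0.43 (0.0749) and no filter 0.0526. In ENSW medium BRAF minus EV was 0.00 ± 0.24 and selected minus EV 0.05 ± 0.24 (adjusted p = 0.996 and 0.92). The difference in response between selected and EV organoids was 0.90 ± 0.34 (adjusted p = 0.0702, called with the culture at 0.0184 and slide at 0.0486 as random blocks, and without EV base line 1 at 0.0489 or 2 at 0.0377).

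Atoh1, the factor that founds the secretory lineage, varied widely between lines (probe at chr6:64681161-64681220, plus strand, mm9). EV organoids gave -0.07, -2.99 and -0.31 in ENSW medium and -0.44, 0.16 and -1.35 in base medium. BRAF organoids gave -2.38, -7.63 and -0.62 and then -2.81, -6.33 and -2.45. Selected organoids gave -7.47, -7.71 and -4.13 and then -5.06, -7.91 and -3.50. Line 2 was not well above background in BRAF or selected organoids in either medium, and line 1 was not in selected organoids in ENSW. Line 3 kept the highest level in both types. Both wild-type arrays, at 0.57 and 0.74, lay above every other array.

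In base medium selected minus EV was -4.94 ± 1.69 for Atoh1, lower in 3 of 3 lines and without overlap (limma adjusted p = 0.0262). This was 30.8-fold, with 2 of the 3 selected arrays well above background. Without EV base line 1 or 2, or selected base line 2, the adjusted p was 0.0608, 0.0702 and 0.112. With normexp the difference was -2.24 (adjusted p = 0.00121) and with the authors' values -2.95 (0.00591). In ENSW medium it was -5.32 ± 1.69 (adjusted p = 0.0513), also without overlap. That comparison passed the threshold with line as a block (0.0105), the culture as a block (0.0393), normexp (-1.93, 0.0198), the authors' values (-2.76, 0.033) and the strict filter (0.0465). It also passed without selected base line 2, selected ENSW line 3, BRAF ENSW line 2 or 3, or BRAF base line 2, at 0.0232 to 0.0472. For BRAF against EV the differences were -2.42 ± 1.69 in ENSW (adjusted p = 0.439) and -3.32 ± 1.69 in base medium (adjusted p = 0.152). The latter was called with line as a block (0.0442), normexp (-1.62, 0.0207) and the authors' values (-2.31, 0.0351). Base minus ENSW in EV organoids had no common sign for Atoh1, with -0.37, 3.14 and -1.05 in lines 1, 2 and 3.

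Gfi1, a repressor that acts after Atoh1 in goblet cell commitment, gave -0.86, -4.91 and -1.62 in EV organoids in ENSW and -2.26, -4.32 and -3.56 in base medium (probe at chr5:108145719-108145778, minus strand, mm9). BRAF organoids in ENSW gave -4.28, -7.42 and -2.62, of which line 2 was not well above background. The other 9 arrays, BRAF in base medium and selected in both media, ran from -7.71 to -6.30 and none was well above background. Wild-type arrays gave -0.37 and -1.01.

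Because those 9 arrays hold only a bound, folds for Gfi1 are given as lower limits. Each is set against the higher of the probe's own signal and the dimmest signal well above background. They are limits on the processed signal of the main fit alone, as are the limits given for other genes. The Gfi1 differences with normexp and with the authors' values, given below, were smaller than these limits. Gfi1 was at least 7.61-fold lower in selected than in EV organoids in ENSW medium (limma adjusted p = 0.00988) and at least 4.13-fold lower in base medium (adjusted p = 0.00575). In BRAF organoids in base medium it was at least 4.35-fold lower than in EV (adjusted p = 0.0201). Lines did not overlap in these 3 comparisons. In BRAF organoids in ENSW the difference was -2.31 ± 1.08 (adjusted p = 0.224), with lines 1 and 3 within the EV range. The selected call in ENSW was lost without EV ENSW line 1 (0.0538). The BRAF call in base medium was lost without EV base line 1 (0.0797) or 3 (0.0513) and without BRAF base line 1 (0.0629) or 2 (0.0561). With normexp both base-medium differences were -0.56 for BRAF (adjusted p = 0.263) and -0.72 for selected (0.101), and with the authors' values -1.10 (0.115) and -1.20 (0.0658). In ENSW they were -1.26 (0.0274) and -2.10 (0.0168) for selected organoids. Between media in BRAF organoids Gfi1 differed by -2.26 ± 1.08 (adjusted p = 0.277, and 0.0468 with the culture as a block).

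Spdef, the factor of goblet cell maturation, was well above background on all 18 arrays (probe at chr17:27851401-27851460, minus strand, mm9). EV organoids gave 3.98, 1.07 and 3.63 in ENSW and 2.53, 1.35 and 1.24 in base medium. BRAF organoids gave 2.30, -3.08 and 3.70 in ENSW and -1.67, -3.81 and -0.61 in base medium. Selected organoids gave -4.25, -2.02 and 1.85 and then -3.66, -1.34 and 0.64. In base medium every EV line lay above every BRAF and selected line, and in ENSW medium the types overlapped. Wild-type arrays gave 4.67 and 3.75. No comparison called Spdef. Its differences from EV organoids were -1.92 ± 1.76 and -3.74 ± 1.76 for BRAF in ENSW and base medium, and -4.37 ± 1.76 and -3.16 ± 1.76 for selected organoids, with limma adjusted p between 0.113 and 0.574. Base minus ENSW in BRAF organoids was -3.97 in line 1, -0.73 in line 2, the low line, and -4.31 in line 3, a mean of -3.00 ± 1.76 (adjusted p = 0.379).

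The lines ranked differently in each type. In BRAF organoids line 2 was lowest for Atoh1 and Spdef in both media and for Gfi1 in ENSW. In selected organoids line 3 was highest for Atoh1 and Spdef in both media, line 1 was lowest for Spdef, and line 2 was lowest for Atoh1. In EV organoids in ENSW line 2 was lowest for all 3 genes and for Dll1 and Dll4. Ordered by group mean, neighbouring groups overlapped at every step for Atoh1, Gfi1 and Spdef. The EV groups were the 2 highest for each of them.

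Goblet and enteroendocrine markers were low in the same groups. Goblet markers summed to 31.3 to 268 in EV organoids in ENSW and 296 to 603 in base medium, in units of the 75th percentile. The sums were 7.2 to 133 and 11.7 to 47.4 in BRAF, and 1.5 to 22.7 and 1.46 to 21.8 in selected organoids. For selected against EV, 9 of 11 goblet markers fell in ENSW and 8 of 11 in base medium, against 5.15% and 23.2% of all genes, and Reg4, Retnlb, Sytl2 and Tff3 were not well above background on any selected array. Of 10 enteroendocrine markers, 5 fell in selected against EV organoids in ENSW and 10 in base medium, where their sums were 0.324 to 0.395 against 5.6 to 127. Muc2, the goblet cell mucin, gave -7.58, -6.57 and -4.81 in selected organoids in base medium, with line 3 alone well above background. EV organoids gave 5.04, 2.86 and 4.05 there, a difference of -10.30 ± 1.97 (limma adjusted p = 0.000632) and of -6.50 with normexp. For 6 markers of tuft cells, the limma adjusted p for selected against EV organoids was at least 0.326 in ENSW and 0.0913 in base medium. Tuft sums in ENSW were 0.219 to 1.82 in selected and 0.0914 to 0.4 in EV organoids, and Dclk1 differed by 1.24 ± 0.81 there (adjusted p = 0.326). The share of secretory cells in each culture was not measured, and its part in Atoh1, Gfi1 and Spdef was not tested.

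Klf4, a factor of differentiated colonocytes and goblet cells, had the largest difference between media of the 10 genes in EV organoids (probe at chr4:55540167-55540226, minus strand, mm9). EV organoids gave 1.48, 1.43 and 1.27 in ENSW medium and 4.52, 4.26 and 4.36 in base medium. The lines of each medium lay close together, and the 3 base-medium arrays were above all other EV, BRAF and selected arrays. Wild-type arrays gave 1.58 and 4.61. Klf4 was higher by 2.99 ± 0.71 in base medium, in 3 of 3 lines (limma adjusted p = 0.00386), which is 7.94-fold.

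In BRAF organoids Klf4 was 1.37, 1.90 and 1.12 in ENSW and 1.72, 3.59 and 2.62 in base medium. It was higher in base medium in each line, by 0.35, 1.69 and 1.5, a mean of 1.18 ± 0.71 that was not called (limma adjusted p = 0.392). Selected organoids gave 1.51, -0.29 and -1.69 in ENSW and 1.41, -0.69 and -0.83 in base medium, where line 1 stood at the EV level of ENSW medium and lines 2 and 3 below it. Their medium difference was 0.12 ± 0.71 (adjusted p = 1). In base medium selected minus EV was -4.42 ± 0.71 for Klf4, lower in 3 of 3 lines (adjusted p = 0.000149), which is 21.4-fold. Selected minus BRAF was -2.68 ± 0.71 (adjusted p = 0.0296), with -0.31 in line 1 and -4.28 and -3.45 in lines 2 and 3. That call was lost without selected base line 2 (0.0871) or 3 (0.105) or BRAF base line 2 (0.131) or 3 (0.082). On the 1 slide that held both types, selected line 3 was -2.55 from BRAF line 1 in base medium and -3.06 in ENSW.

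For BRAF against EV in base medium Klf4 differed by -1.74 ± 0.71, without overlap (limma adjusted p = 0.0769). It was called with the culture as a block (0.0499) and without selected ENSW line 1 (0.0351) or 3 (0.044), selected base line 1 (0.0464) or BRAF base line 2 (0.0498). For selected against EV in ENSW it was -1.55 ± 0.71 (adjusted p = 0.157), and -2.38 (0.0377) without selected ENSW line 1. The response of Klf4 to the medium differed between selected and EV organoids by -2.87 ± 1.00 (adjusted p = 0.051). It was called under 7 other settings, at 0.00181 (culture as a block) to 0.0455, among them line as a block (0.0418) and normexp (0.0167). It was called too without selected base line 1 (0.0155), selected ENSW line 3 (0.013), or BRAF base line 1 (0.0453) or 2 (0.047). Absorptive markers were high in the same group as Klf4. Of 9 tested, 8 rose in EV organoids in base medium (23.4% of all genes rose), to sums of 1220 to 2460 from 60.9 to 350, and their sums in base medium were 165 to 470 in BRAF and 22.6 to 27.6 in selected organoids. Their part in the level of Klf4 was not tested. Group means of Klf4 ran from selected in ENSW, selected in base medium, EV in ENSW, BRAF in ENSW and BRAF in base medium to EV in base medium, and only the last step was free of overlap.

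Among ligands outside the 10 genes, Jag2, a second Jagged ligand, had the pattern of the receptors. It gave -1.81, -0.60 and -0.83 in EV organoids in ENSW and -2.89, -2.07 and -3.13 in base medium, and at 0.38, 0.35 and -0.08 in selected organoids in base medium. The EV lines did not overlap between media, and selected lines in base medium lay above all EV lines. Jag2 fell by 1.61 ± 0.35 in EV organoids in base medium (limma adjusted p = 0.00222). It was higher there by 2.08 ± 0.35 in BRAF (adjusted p = 0.000711) and 2.91 ± 0.35 in selected organoids (adjusted p = 1.53e-05). The response differed by 1.73 ± 0.50 between selected and EV (adjusted p = 0.0216, and 0.0571 with normexp). Without EV ENSW line 2 or 3, EV base line 3 or selected ENSW line 3 that last call was lost, at 0.0516 to 0.0633. The other ligand tested, Dll3, passed the threshold in no comparison.

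Notch3, a receptor better known from mural cells, was higher in BRAF and selected than in EV organoids. It gave -4.75, -4.30 and -4.32 in EV organoids in ENSW, where all 3 were well above background, and -6.47, -5.56 and -6.59 in base medium, where none was. BRAF organoids gave -2.77, -3.15 and -1.21 in ENSW and -1.88, -3.09 and -1.90 in base medium, and selected organoids gave 0.03, -0.55 and -0.66 and then -0.16, -0.83 and -1.94. All EV lines lay below all BRAF and selected lines in each medium. In ENSW, Notch3 was higher than in EV by 4.07 ± 0.53 in selected organoids (limma adjusted p = 0.000381) and by 2.08 ± 0.53 in BRAF organoids (adjusted p = 0.0336). The BRAF value lost its call with the authors' values (1.18, adjusted p = 0.0905), without any EV ENSW line (0.0592 to 0.133) and without BRAF ENSW line 1 (0.0521) or 3 (0.107). In base medium it was at least 9.08-fold higher in BRAF (adjusted p = 0.000181) and at least 22.5-fold higher in selected than in EV organoids (adjusted p = 4.33e-06). With normexp these differences were 1.04 (0.012) and 1.82 (6.47e-05), and in the authors' deposited values they were 1.66 (0.00491) and 2.75 (4.28e-05). Each of these was smaller than the limit given for the main signal. Between media in EV organoids it was at least 2.02-fold lower in base medium (adjusted p = 0.0162). That call was lost with normexp (-0.05, 0.901), with the authors' values (-0.50, 0.343), and without EV base line 1 (0.0525) or 3 (0.0678). Of 8 stromal and mural markers, 6 were not well above background on any BRAF or selected array, Pdgfrb and Des among them, and Acta2 and Col1a2 were on all of them. Pdgfrb was well above background on 3 EV arrays in ENSW and 2 in base medium. It was lower in BRAF and selected than in EV organoids in either medium, by at least 1.93-fold to 2.63-fold (limma adjusted p = 7.01e-05 to 0.000943). The summed signal of the 8 markers was 0.304 to 0.495 in BRAF and selected and 0.331 to 0.418 in EV organoids, and their part in the Notch3 result was not tested. Notch4 was higher in selected organoids than in EV in base medium by 1.72 ± 0.59 (adjusted p = 0.0259), with slide as a random block giving 0.0537, and its adjusted p was 0.0716 without EV base line 1, 0.0575 without EV base line 3 and 0.126 without selected base line 2.

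**Figure D4:**
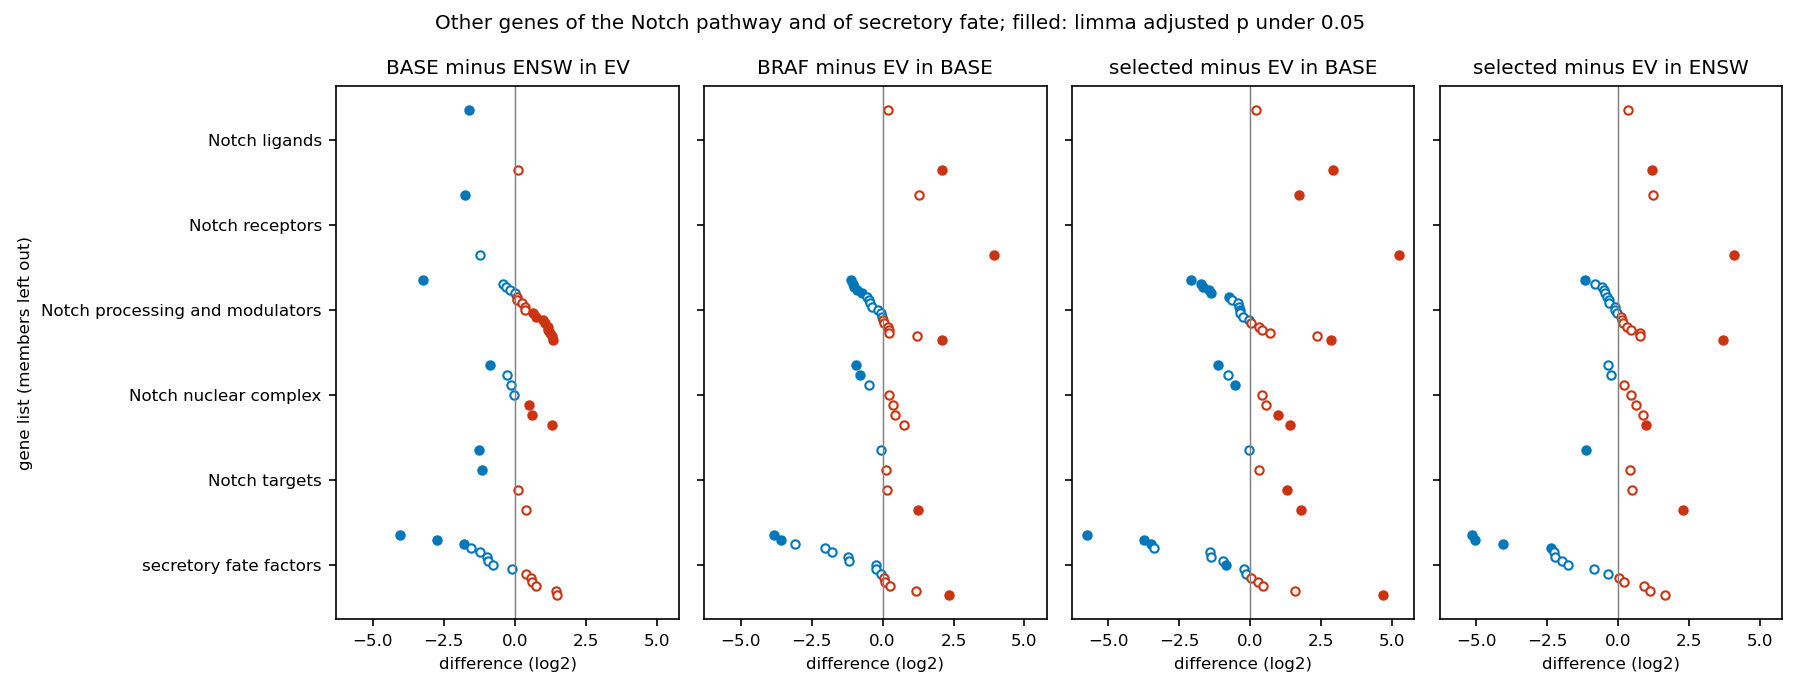
Differences in log2 units for the other tested genes of 6 lists (rows) in 4 comparisons (panels); each point is a gene, red higher and blue lower in the group named first, filled where the limma adjusted p was under 0.05. The receptors and Jag2 lie to the right in both base-medium comparisons with EV, and Dll3, the other of the 2 ligands shown, was not called. Most processing genes lie to the right for the medium in EV organoids.

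Genes of Notch processing, which cut, modify or degrade the receptor, rose more often than they fell in EV organoids. Of 19 tested, 9 were higher and 1 lower in base than in ENSW medium (23.4% and 18.8% of all genes), with a median of 0.34 against 0.19 for all genes. The gamma-secretase subunits Aph1a and Ncstn were among those that rose, by 1.06 ± 0.18 and 1.24 ± 0.21 (limma adjusted p = 0.000296 and 0.00036). Numb, an inhibitor of Notch, gave -2.40, -2.62 and -2.64 in ENSW and -1.22, -1.54 and -0.84 in base medium. It rose by 1.35 ± 0.19 (adjusted p = 7.46e-05). In selected against EV organoids in base medium, 7 of 19 fell and 1 was higher (23.2% and 25% of all genes). Ncstn fell by 1.74 ± 0.21 (adjusted p = 1.57e-05) and Numb by 1.68 ± 0.19 (adjusted p = 7.65e-06) there. The response to the medium differed between selected and EV organoids for 6 of 19, all lower (10.4% of all genes), among them Numb (-1.36 ± 0.26, adjusted p = 0.00238) and Ncstn (-1.33 ± 0.30, adjusted p = 0.00529). In BRAF against EV organoids in base medium, 5 of 19 fell and 1 was higher (13.1% and 17.9% of all genes).

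Numbl, the paralog of Numb, was higher in BRAF and selected than in EV organoids. It was -6.12, -7.41 and -5.42 in EV organoids in ENSW, with 1 of the 3 arrays well above background, and -2.42, -2.98 and -2.47 in selected organoids. All 3 selected lines lay above all 3 EV lines. It was higher by 3.69 ± 0.44 in selected (limma adjusted p = 0.000194) and by 2.62 ± 0.44 in BRAF than in EV organoids (adjusted p = 0.00411), and by 0.95 and 0.77 with normexp. In base medium, where Numb fell, Numbl was higher by 2.84 ± 0.44 in selected (adjusted p = 0.000107, and 0.51 with normexp) than in EV organoids. The BRAF difference there was 2.09 ± 0.44 (adjusted p = 0.00295), and 0.40 with normexp, where it was not called (0.101).

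Of 7 genes of the nuclear complex that acts with Rbpj, 3 rose and 1 fell in EV organoids in base medium (23.4% and 18.8% of all genes), and 2 were higher and 2 lower in selected than in EV organoids there (25% and 23.2% of all genes). In EV organoids the calls of Spen (0.0455), Maml1 (0.046) and Maml3 (0.0488) lay at the threshold. Each was lost under 3 to 5 other settings and on leaving out any 1 of 12 arrays for Spen and Maml1 or 13 for Maml3, without EV base line 3 at 0.108, 0.141 and 0.226. The coactivator Maml3 was higher there by 1.40 ± 0.33, at -1.87, -0.97 and -0.88 in selected and -2.18, -2.52 and -3.22 in EV organoids (limma adjusted p = 0.00325, and 0.77 with normexp). Spen, a corepressor partner of Rbpj, fell by 1.13 ± 0.23 in selected against EV organoids in base medium (adjusted p = 0.000955).

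Of 4 further Notch targets tested, 2 fell in EV organoids in base medium (18.8% of all genes), and 2 were higher and 0 lower in selected than in EV organoids there (25% and 23.2% of all genes). One of those higher was Dtx1, a Notch regulator and target, on no EV array well above background (1.80 ± 0.68, limma adjusted p = 0.0409). Its call was lost with normexp (0.12, 0.736), the authors' values (0.39, 0.11) and no filter (0.0558). It was lost without EV ENSW line 1 or 3, EV base line 1, 2 or 3, or selected base line 2 or 3, at 0.0506 to 0.165. Nrarp, a feedback inhibitor, gave -3.08, -3.22 and -2.77 in EV organoids in ENSW and -4.40, -4.26 and -4.23 in base medium, without overlap. It fell by 1.27 ± 0.29 there (limma adjusted p = 0.00272) and was higher by 1.24 ± 0.29 in BRAF (adjusted p = 0.0052) and 1.28 ± 0.29 in selected organoids (adjusted p = 0.00207) in base medium. With normexp these were -0.37, 0.45 and 0.40, and none was called (adjusted p = 0.118, 0.0703 and 0.0791). Hes5, another Hes repressor, also fell in EV organoids in base medium, by 1.15 ± 0.30 (adjusted p = 0.00716, and 0.182 with normexp). In ENSW medium selected minus EV was -1.14 ± 0.30 (adjusted p = 0.0245) and -0.43 (0.228) with normexp, and the call was lost without EV ENSW line 1 or 3 or selected ENSW line 1 or 2, at 0.0505 to 0.087. Heyl was tested and called in no comparison, and Hey1 and Hey2 were on the array but too dim to be tested.

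Of 15 further secretory fate factors tested, 4 fell in selected against EV organoids in ENSW (5.15% of all genes fell) and 4 fell and 1 was higher in base medium (23.2% and 25% of all genes), a share near that of all genes. Neurog3, the factor that starts the enteroendocrine lineage, gave 1.22, -2.29 and 0.22 in EV organoids in ENSW and -3.97, -4.38 and -4.65 in base medium. Selected organoids in ENSW gave -3.90, -4.77 and -4.35, below all EV lines. Base minus ENSW in EV organoids was -4.05 ± 0.90 (limma adjusted p = 0.00252), and selected minus EV in ENSW was -4.06 ± 0.90 (adjusted p = 0.0109, and 0.0577 without EV ENSW line 1). Insm1, an endocrine factor, was at least 11.6-fold lower in selected organoids than in EV in base medium (adjusted p = 0.00149), with -1.72 under normexp (0.0045).

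Sox9, a factor of crypt progenitors, shared part of the pattern of the receptors. It gave 0.31, 0.86 and 0.43 in EV organoids in ENSW and -2.19, -1.15 and -3.34 in base medium, and 1.46, 2.78 and 3.07 in selected organoids in base medium. Neither pair of groups overlapped. Sox9 fell by 2.76 ± 0.84 in EV organoids in base medium (limma adjusted p = 0.0166) and was higher by 4.67 ± 0.84 in selected than in EV organoids (adjusted p = 0.000389). The medium call was lost without EV ENSW line 2 (0.0521) or EV base line 3 (0.0863). BRAF organoids in base medium gave 0.35, -2.12 and 2.06, overlapping the EV lines, with line 2 below its EV level. Their difference from EV, 2.33 ± 0.84, was called at the edge of the threshold (limma adjusted p = 0.0489). The response of Sox9 to the medium was not called as different between selected and EV organoids.

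Over the 18 arrays, each of the 10 genes was set against 16067 other genes, and the genes closest in pattern were taken by Pearson's r. These values describe the arrays and carry no test, since arrays of a culture share their cells and groups. Notch1 was closest to Psrc1 (0.953), Mfge8 (0.931) and Cd44 (0.93), and Notch2 to Bex3 (0.958) and Elk3 (0.957). Plxna2 (0.952) and Lmo7 (0.949) were among the genes close to Klf4, and Gfi1 was closest to the kallikreins Klk1b26 (0.975) and Klk1 (0.969). For Atoh1 the nearest were Nid2 (0.934) and the mucin Muc2 (0.916), and for Spdef Agr2 (0.941), a goblet cell protein disulfide isomerase. Dll4 lay nearest to Fam183b (0.927) and the hormone gene Nts (0.92). Hes1, Jag1 and Dll1 had looser neighbours, Commd10 (0.88), Mycl (0.833) and Rfxap (0.808).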

How the data were processed

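Total RNA from 20 organoid samples was hybridised to single-colour (Cy3) Agilent arrays. The spot intensity used was the background-subtracted processed signal, made with Feature Extraction 10.7.3.1 per the file headers. A series table of log2 values, deposited by the authors, served as an alternative. Its normalization is not given in the sources used here, and the submitters' processing notes name limma.

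After removal of control spots and 48 non-uniform outlier spots, log2 intensities were set against the 75th percentile of each array and averaged per probe. The filter kept 26827 probes that stood well above background on 3 or more of 18 arrays, and the brightest probe stood for each of 21424 genes. In R 4.3.3, limma 3.58.1 (lmFit, then eBayes) fitted 1 mean per group, leaving 12 residual degrees of freedom, and gave 12 contrasts. A p-value rests on the spread between the 3 lines of a group, pooled over the 6 groups, and the number of arrays limits the precision. This fit treated the 2 arrays of a culture as independent, so the media were not paired by culture. Between 59.6% and 65.2% of spots per array were well above background. Probe positions come from the files, which name mm9, and exon or UTR annotation of that build was not used here. Tables were made in Python 3.11.15 with pandas 2.3.3 and numpy 2.4.6, and figures with matplotlib 3.10.9.

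The labels give the same line numbers to EV, BRAF and selected cultures. Deviations from group means correlated at r = 0.423 to 0.874 between the 2 arrays of a culture (9 pairs), and at -0.081 to 0.374 between cultures of the same line (36 pairs). EV line 1 correlated with BRAF and selected line 1 at -0.081 to 0.059. Fits with line, culture or slide as a block were alternatives, with other background corrections, normalizations, filters, the mean of probes, and each array left out.

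Named genes were the 10 members, the called genes of each pathway list with the smallest adjusted p (up to 4 per comparison), up to 2 called genes of each marker list, Muc2, Chga, Krt20, Mki67, Epcam and Dclk1, and the 3 genes closest to each member in pattern, of which the text prints those that bear on the members. Some genes that this rule names are not reported here. Dll3, Heyl, Hey1 and Hey2 were named to complete their lists. The members and lists were chosen with earlier results of these data known. On data simulated for BRAF against EV in ENSW over 21424 genes, 152 of 200 genes changed by 2 log2 units were recovered, with 3 false calls. The simulated arrays were independent normal draws, without slides or the correlation between arrays of a culture, so these rates need not hold for the measured data.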

Additional observations from a re-analysis of the deposited data

Results flagged for a closer look

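Notch1 and Notch2 responded to the medium differently in selected and EV organoids, by a test of the difference itself (limma, a contrast of responses). For Notch1 the response, base minus ENSW, was -1.86, -1.06 and -2.11 in EV lines 1, 2 and 3 and 0.59, 0.12 and -0.12 in selected lines, a difference of 1.87 ± 0.63 (adjusted p = 0.043). For Notch2 the responses were -0.92, -0.76 and -1.70 in EV lines and 0.89, -0.10 and -0.08 in selected lines, a difference of 1.37 ± 0.43 (adjusted p = 0.0326). Both calls were lost without EV base line 3 (0.0971 and 0.0915), among other arrays named above, and the Notch2 call was lost with the mean of its 2 probes (0.64, adjusted p = 0.17). All genes called in the same contrast made up 24.2% of those tested.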

How the results depend on the processing

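No called difference of the 10 genes, of the other pathway genes named here or of Muc2, Chga, Krt20, Mki67 and Epcam reversed its sign. This covers 11 other settings and 18 fits with 1 array left out. The number of members called moved as follows, among other shifts. For selected against EV in base medium (7), Gfi1 lost its call with normexp and with the authors' values. Dll4 and Atoh1 lost theirs there without some arrays, named above. For BRAF against EV in base medium (5) it was 3 with normexp and 3 without the filter, 6 with quantile normalization and with the culture as a block, 7 with the line as a replicate block, and 2 to 6 with arrays left out. For selected against EV in ENSW (1) it was 2 with normexp, the authors' values, the strict filter, the mean of probes and the culture as a block, 4 with the line as a replicate block, and 0 to 3 with arrays left out. For selected against BRAF in base medium (1) it was 2 with the mean of probes and with slide as a fixed block, and 0 to 1 with arrays left out. For the medium in EV organoids (4) arrays left out gave 2 to 4. In that comparison Hes1 lost its call with normexp and without the filter, and Notch2 with the mean of probes. Dll4 gained a call there with the culture as a block. With the culture as a block the count was 1 for the medium in BRAF organoids and 1 for the response of BRAF against EV (0 each). For the response of selected against EV (2) it was 1 without the filter and with the mean of probes, 4 with slide or culture as a random block, and 0 to 3 with arrays left out.

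Over all genes the count for BRAF against EV in ENSW was 1332, and 371 without EV ENSW line 1, and in base medium 6652, and 4367 without EV base line 3. For selected against EV in ENSW it was 2967, 1919 with normexp and 1126 without EV ENSW line 1. For selected against BRAF it was 130 in ENSW (85 with normexp, 414 with slide as a fixed block, 234 with line as a block, 44 without selected ENSW line 3) and 2094 in base medium (1334 with slide as a fixed block, 842 without BRAF base line 2 and 3372 without BRAF base line 1). For the medium in BRAF organoids it was 358, and 215 without the filter, 566 with the authors' values, 725 with slide as a random block, 616 with line and 4082 with the culture as a block, and 16 (without BRAF ENSW line 2) to 1720 (without BRAF base line 1). For the response of BRAF against EV it was 756 (1327 normexp, 336 no filter, 1387 and 176 with slide as a random and a fixed block, 1376 with line, 4238 with culture, 51 without EV ENSW line 2 and 1913 without EV base line 2), for selected against EV 5193 (9248 with culture), and for selected against BRAF 0 (354 with culture). The cause of these shifts was not tested. The line block changed no call of the 10 genes other than those given beside them above. With slide as a fixed block, differences from EV could not be fitted. Signal over background limits Gfi1, Atoh1, Dll1 and Dll4, which on some arrays were not well above background and there hold only a bound.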
